A study of Homo sapiens with 8 samples.

Results

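G4 ChIP-seq peaks whose centre lay in the coding sequence (CDS) or the 3′ UTR of a gene, and more than 1000 bp from every annotated transcription start site (TSS), were collected from the high-confidence peak lists of K562 and HepG2 cells. They made up 193 of the 18010 intervals in the 2 lists. In K562 they were 88 of 9205 intervals (0.956%, 95% Wilson interval 0.777 to 1.18), with 45 in CDS and 43 in 3′ UTRs. In HepG2 they were 105 of 8805 intervals (1.19%, 0.986 to 1.44), with 38 in CDS and 67 in 3′ UTRs. Any annotated protein-coding transcript could place a centre in a class. The one used was tagged as canonical for its gene for 44 of 45 K562 CDS and 38 of 43 K562 3′ UTR intervals. In HepG2 it was canonical for 34 of 38 CDS and 54 of 67 3′ UTR intervals, and the others rest on a non-canonical transcript. A further 223 K562 and 165 HepG2 intervals were centred in CDS or 3′ UTR but closer to a TSS, and these were not included.

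K562 is a chronic myelogenous leukemia cell line and HepG2 a hepatocellular carcinoma cell line, and both were grown without any treatment. The labels list 3 G4 ChIP libraries and 1 input library for each line, made from formaldehyde cross-linked, sonicated chromatin with BG4, an antibody fragment that recognises G4 structures. The deposited lists merge 8 replicates of K562 and 9 of HepG2, and hold the segments found in at least 5 and at least 6 of them, so the 2 lines were not thresholded alike. The study's methods state that earlier K562 G4 ChIP-seq data were also considered, and how much of them the K562 list holds is not given in the sources used here. The chromatin was treated with RNase A before the antibody was added. The files give positions only, with no read depth, height or value per replicate, and the tests below therefore describe intervals in lists and not the spread between cultures.

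A G-quadruplex (G4) is a 4-stranded DNA structure in which guanines from runs along 1 strand stack on each other. Mapped G4s are best known from nucleosome-depleted promoters, whereas a G4 in an exon lies in sequence that is also transcribed. There, G runs on the coding strand are also present in the RNA, and G runs on the template strand are read as C runs in the RNA.

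Complete motifs, meaning at least 4 runs of 3 or more G separated by loops of 1 to 7 bases of any kind, were found inside 14 of the 88 K562 intervals and 5 of the 105 HepG2 intervals, against 32.6% and 20.6% of all high-confidence intervals of the respective line. The sequences that carry the strand result are shown first, 5′ to 3′ on the strand that holds the G runs. Capitals mark runs of 3 or more G and lower case marks loops, and positions are on hg19. The first group belongs to K562 intervals centred in coding exons, and all of these motifs are on the coding strand. They come from MYO15B, a gene related to unconventional myosins, from CDH23, a cadherin of the hair-cell tip link, and from UNC13A, a presynaptic protein that primes synaptic vesicles.
MYO15B, chr17:73585314-73585335, plus strand: GGGcgaGGGGcaGGGtaccGGG
MYO15B, chr17:73585450-73585473, plus strand: GGGGacgaGGGtcGGGGccgcGGG
MYO15B, chr17:73585504-73585527, plus strand: GGGtacgaGGGGcGGGGctgcGGG
CDH23, chr10:73565777-73565797, plus strand: GGGGcGGGGtctGGGGcGGGG
UNC13A, chr19:17716800-17716824, minus strand: GGGcgctGGGcGGGGaGGGacGGGG
UNC13A, chr19:17717212-17717233, minus strand: GGGGacGGGGccgtGGGcGGGG

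Of these, the 3 MYO15B motifs were centred in coding sequence of exon 1. The CDH23 motif was centred in an intron, and of the 2 UNC13A motifs 1 was centred in the 3′ UTR and 1 in an intron. The fourth K562 CDS interval with a motif, in the kinesin gene KIF26B, held a single motif of 33 bases that was also centred in an intron. The class of an interval is set by its centre, and a motif inside it can lie outside the exon.

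The second group belongs to 3′ UTR intervals and is shown because the same motif sequence was covered in both lines. The G runs are on the template strand in PRR36, which encodes a proline-rich protein, and in SDR42E2, a member of the short-chain dehydrogenase/reductase family. In ZBTB7B, a zinc finger transcription factor of the CD4 T cell lineage, the HepG2 interval ended inside a longer motif that the K562 interval covered whole.
PRR36, chr19:7933672-7933695, plus strand, K562 and HepG2: GGGGcGGGactcGGGGaaacGGGG
SDR42E2, chr16:22202386-22202409, minus strand, K562 and HepG2: GGGGcaGGGccaGGGcctggaGGG
ZBTB7B, chr1:154989874-154989896, minus strand, HepG2: GGGGaGGGaGGGctaGGGaGGGG
ZBTB7B, chr1:154989874-154989903, minus strand, K562: GGGccgtGGGGaGGGaGGGctaGGGaGGGG

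The third group shows the K562 3′ UTR motifs on the coding strand, the minority in this class. CORO6 encodes a coronin, an actin-binding protein, and was the only K562 3′ UTR interval with complete motifs on the coding strand alone, by the definition above. The ZBTB7B interval held 2 motifs on each strand, and the 2 on the coding strand are given here.
CORO6, chr17:27942633-27942659, minus strand: GGGctGGGcccGGGGGcGGGactGGGG
ZBTB7B, chr1:154989941-154989966, plus strand: GGGGccagaGGGcaGGGcGGGccGGG
ZBTB7B, chr1:154990081-154990102, plus strand: GGGtgtGGGacaGGGtaaGGGG

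The first comparison asked how densely each class was occupied, given how much annotated sequence lay more than 1000 bp from a TSS. That sequence came to 22.5 Mb of CDS, 35.0 Mb of 3′ UTR and 1497 Mb of introns. In K562 the density was 2.00 intervals per Mb of CDS (95% Poisson interval 1.46 to 2.68), 1.23 per Mb of 3′ UTR (0.889 to 1.65) and 0.454 per Mb of intron (0.420 to 0.489). The HepG2 densities were 1.69 per Mb of CDS (1.20 to 2.32), 1.91 per Mb of 3′ UTR (1.48 to 2.43) and 0.911 per Mb of intron (0.864 to 0.961). Both exonic classes lay above introns in both lines with intervals that did not overlap, while the intervals of CDS and 3′ UTR overlapped each other in both. The eligible sequences differ in composition, with a GC content of 50.5% in CDS, 41.6% in 3′ UTRs and 40.4% in introns, and the part of GC content in the density was not tested. All intervals of these kinds cover counting error only.

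**Figure D1:**
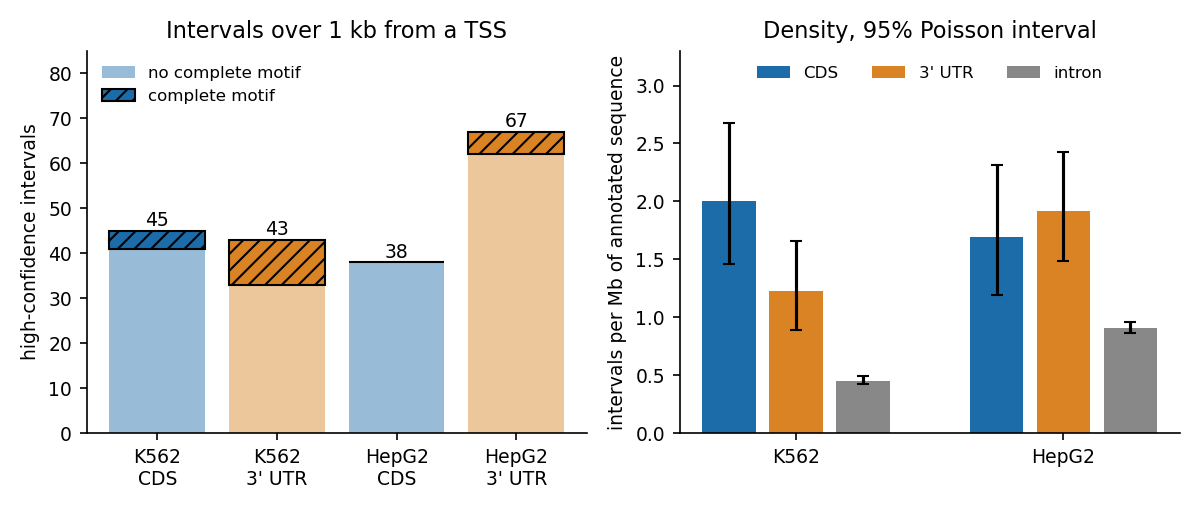
Left, number of high-confidence intervals over 1000 bp from a TSS by line and class, with the hatched part holding a complete motif. Right, intervals per Mb of annotated sequence with 95% Poisson intervals as bars. CDS held 45 intervals in K562 and 38 in HepG2, 3′ UTRs held 43 and 67, and no HepG2 CDS interval held a complete motif.

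The balance between CDS and 3′ UTR intervals was compared between the lines. CDS made up 51.1% of the K562 intervals and 36.2% of the HepG2 intervals, a difference of 14.9 percentage points (95% interval 0.936 to 28.2). Fisher's exact test (two-sided) gave p = 0.0417 and an adjusted p of 0.0881 over the 19 tests of the report, so the difference did not pass. Intervals at the same place in both lines enter both sides of this test, and without them the difference was 20.1 points with an adjusted p of 0.0231. That adjustment covered only the fewer tests run without shared intervals, so it is milder than the one over 19 tests. The difference also passed with the distance measured from protein-coding TSSs alone, at 18.2 points with an adjusted p of 0.0115. It did not pass at a TSS distance of 2000 bp, at 12.5 points with an adjusted p of 0.369, and in the lower-confidence lists it shrank to 3.57 points with an adjusted p of 0.301.

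The intervals themselves were short and GC-rich. The median width was 151 bp for K562 CDS (95% interval of the median 128 to 186, n = 45) and 168 bp for K562 3′ UTRs (121 to 202, n = 43). In HepG2 it was 118.5 bp for CDS (82 to 145, n = 38) and 130 bp for 3′ UTRs (117 to 172, n = 67). The medians of TSS-proximal intervals, meaning those within 1000 bp of a TSS, were 202 bp in K562 and 180 bp in HepG2, at or above the upper limits of the exonic medians of their line. Because a listed interval is the segment shared by enough replicates, it can shrink to very few bases. A 2 bp interval stood in exon 7 of DLL3 in K562, and a 1 bp interval stood in the 3′ UTR of SIRT5 in HepG2. Intervals under 50 bp were 7 of 88 in K562 and 17 of 105 in HepG2.

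The median GC content was 68.3% in K562 CDS (65.3 to 71.6), 65.8% in K562 3′ UTRs (63.4 to 67.7), 60.3% in HepG2 CDS (56.8 to 64.3) and 60.7% in HepG2 3′ UTRs (57.9 to 62.3). Both HepG2 classes therefore lay below both K562 classes, although the HepG2 CDS limits reached into those of the K562 3′ UTRs. TSS-proximal intervals showed the same order of the lines, at 71.1% in K562 and 67.4% in HepG2, and so did intronic intervals, at 63.8% and 57.5%. The lowest GC among K562 intervals over 50 bp was in POT1, a telomere-binding protein, where a 320 bp CDS interval held 41.6% GC. Among the widest intervals the GC content was 69.8% in UNC13A, 66.2% in SDR42E2 of K562 and 65.9% in SDR42E2 of HepG2.

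Median CpG content was intermediate between that of intronic and promoter peaks. The median ratio of observed to expected CpG was 0.726 in K562 CDS (0.557 to 0.796) and 0.536 in K562 3′ UTRs (0.333 to 0.656), against 0.867 in TSS-proximal and 0.343 in intronic intervals of the same line. In HepG2 it was 0.392 in CDS (0.323 to 0.549) and 0.300 in 3′ UTRs (0.222 to 0.403), against 0.821 in TSS-proximal and 0.235 in intronic intervals. All 4 exonic medians lay between the intronic and the TSS-proximal median of their line, but the limits of both 3′ UTR medians included the intronic median. The part of TSS distance in the CpG content was not tested.

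**Figure D2:**
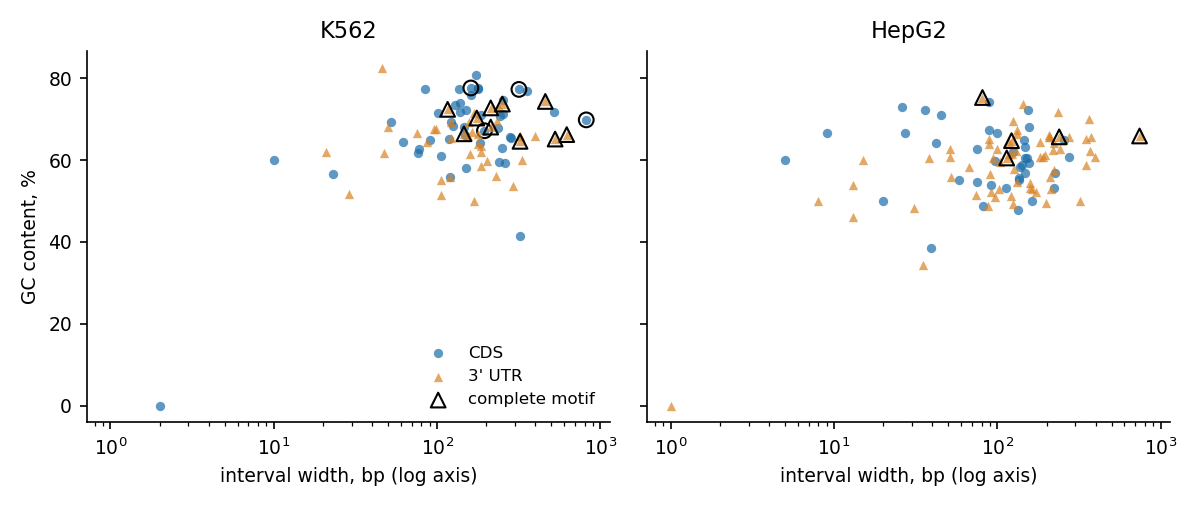
GC content against interval width on a log axis for K562 (left) and HepG2 (right), with 1 point per interval and open outlines around intervals with a complete motif. Most intervals lie between 50 and 80% GC, and the 2 points at 0% are the intervals of 2 bp in DLL3 and 1 bp in SIRT5.

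Complete motifs were less frequent in exonic intervals than in promoter peaks of the same line. In K562 the share was 14 of 88 (15.9%) against 2704 of 7850 TSS-proximal intervals (34.4%), a difference of −18.5 percentage points (−24.8 to −9.44), with an adjusted p of 0.000767 by Fisher's exact test. In HepG2 it was 5 of 105 (4.76%) against 1579 of 6465 (24.4%), a difference of −19.7 points (−22.6 to −13.7) with an adjusted p of 7.4e-07. With runs of 2 or more G in place of 3 or more, the K562 difference fell to −6.75 points and its adjusted p rose to 0.103. TSS-proximal intervals were also wider, and within width classes the odds ratio of holding a motif was 0.371 in K562 and 0.224 in HepG2, with adjusted p of 0.00822 and 0.00307 by the Mantel-Haenszel test.

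Against intronic intervals the motif share did not pass in either line. It was 23.1% of 679 intronic intervals in K562, a difference of −7.21 points (−14.2 to 2.32) with an adjusted p of 0.162. In HepG2 it was 10.1% of 1364, a difference of −5.36 points (−8.56 to 0.734) with an adjusted p of 0.136. These limits leave room for a deficit of up to 14.2 points in K562, and the sign turned when motif loops of up to 12 bases were allowed, to 1.86 points. With runs of 2 or more G the differences were 3.24 points in K562 and 2.88 points in HepG2.

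Between the classes, motifs were in 4 of 45 K562 CDS intervals (8.89%) and 10 of 43 K562 3′ UTR intervals (23.3%), a difference of −14.4 points (−29.8 to 1.20) with an adjusted p of 0.136. In HepG2 they were in 0 of 38 CDS intervals, which allows a share of up to 7.89% when the limit is set at 3 counts (Wilson upper limit 9.18%), and in 5 of 67 3′ UTR intervals (7.46%). That difference was −7.46 points (−16.3 to 2.65) with an adjusted p of 0.175, so neither line showed a difference between the classes beyond counting error. The HepG2 sign depended on the interval edges: after adding 50 bp on each side, 5 of 38 CDS and 8 of 67 3′ UTR intervals held a motif, a difference of 1.22 points.

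Between the lines, the motif share of 3′ UTR intervals was 15.8 points higher in K562 (2.37 to 30.9), with an unadjusted p of 0.0241 and an adjusted p of 0.0653 by Fisher's exact test. It passed in the lower-confidence lists, where motifs were in 32 of 216 K562 and 40 of 491 HepG2 intervals, with an adjusted p of 0.0415. For CDS the difference was 8.89 points (−1.75 to 20.7) with an adjusted p of 0.158. With loops of up to 12 bases the counts were 13 of 45 in K562 and 2 of 38 in HepG2 for CDS, and 20 of 43 and 12 of 67 for 3′ UTRs, and both differences passed, with adjusted p of 0.0252 and 0.012. The HepG2 intervals were also narrower and lower in GC than those of K562, and the part of GC in these differences was not tested. Within width classes the odds ratio for 3′ UTRs was 3.92 with an adjusted p of 0.236 by the Mantel-Haenszel test.

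Looser motifs were common. A motif with runs of 2 or more G was present in 37 of 45 K562 CDS, 37 of 43 K562 3′ UTR, 23 of 38 HepG2 CDS and 46 of 67 HepG2 3′ UTR intervals, while 89.6% of all K562 and 79.6% of all HepG2 high-confidence intervals had one. Both K562 classes stood near the share of their line, and both HepG2 classes stood below it.

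The strand of the motif relative to the gene was the next comparison, limited to intervals with all complete motifs on 1 strand. In K562 CDS the motifs were on the coding strand in 4 of 4 intervals, with an exact 95% interval of 39.8 to 100% and an adjusted p of 0.158 by the exact binomial test against 50%. In K562 3′ UTRs they were on the coding strand in 1 of 9 (11.1%, 0.281 to 48.2, adjusted p = 0.0881, exact binomial), and in HepG2 3′ UTRs in 0 of 5 (0 to 52.2%, adjusted p = 0.119, exact binomial). No class alone differed from an even split after adjustment, and with 4 or 5 intervals the exact test cannot reach an unadjusted p below 0.125 or 0.0625. The K562 intervals on the template strand included those in CCDC97, KLF16, PRR36, RASAL3, REM2, SCRT1 and SDR42E2. The HepG2 intervals were in NRSN2, PHYHIP, PRR36, SDR42E2 and ZBTB7B.

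Set against each other, the K562 classes differed by 88.9 percentage points in coding-strand share (30.2 to 98.0), with an adjusted p of 0.0266 by Fisher's exact test. This rests on 4 CDS and 9 3′ UTR intervals, and it was lost under 6 of the alternatives. Among them, the 50 bp extension gave 6 of 11 in CDS and 2 of 11 in 3′ UTRs, and the lower-confidence list gave 13 of 24 and 8 of 28, with adjusted p of 0.349 and 0.216. Only MYO15B among the 4 CDS intervals had its motifs in coding sequence. HepG2 offered no such comparison, as its CDS intervals held no complete motif.

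**Figure D3:**
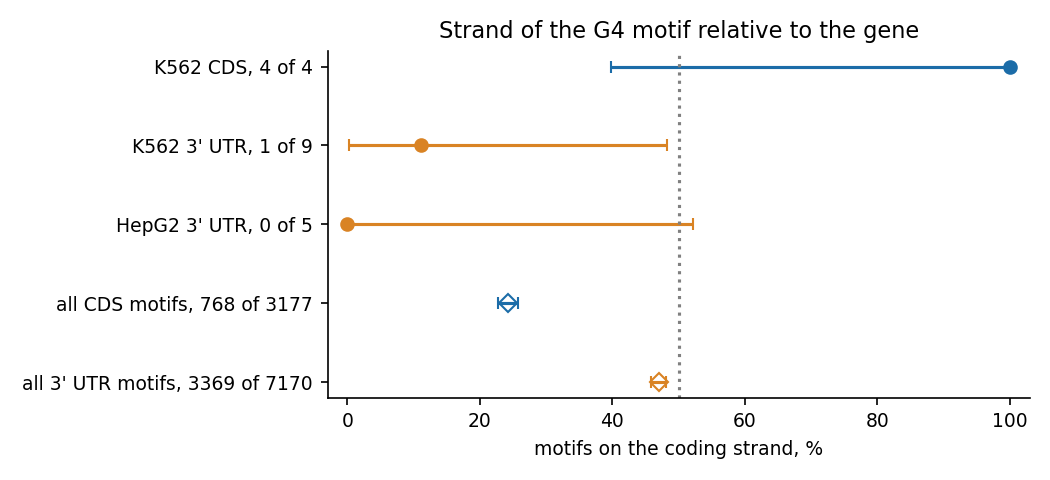
Percentage on the coding strand, counted over intervals for circles and over motifs for diamonds, with the count on each label. Filled circles are intervals with complete motifs on 1 strand and exact 95% intervals, open diamonds are all complete motifs in the annotated sequence with 95% Wilson intervals, and the dotted line marks 50%. All 4 K562 CDS intervals stand at 100%, and 3′ UTR intervals stand at 11.1% in K562 and 0% in HepG2. Among those 4 only MYO15B had its motifs in coding sequence, so the CDS diamond is not a background for the others.

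The motifs available in the annotation were themselves uneven. In CDS more than 1000 bp from a TSS, 768 motifs were on the coding strand and 2409 on the template strand (24.2% coding, 22.7 to 25.7), while in 3′ UTRs 3369 were on the coding and 3801 on the template strand (47.0%, 45.8 to 48.1). K562 high-confidence intervals covered 2 of the 768 coding-strand and 0 of the 2409 template-strand CDS motifs. They covered 4 of the 3369 coding-strand and 16 of the 3801 template-strand 3′ UTR motifs. HepG2 covered 0 and 0 in CDS, and 2 and 6 in 3′ UTRs. The covering interval may itself be centred outside the class. Thus nearly all annotated exonic motifs away from promoters were outside the high-confidence intervals of either line. Several of the covered 3′ UTR motifs share an interval, as in RASAL3 and SCRT1, and are not separate observations.

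Motifs with runs of 2 or more G, restricted to intervals with such motifs on 1 strand, stood on the coding strand in 9 K562 CDS intervals and on the template strand in 7. In K562 3′ UTRs the counts were 8 and 12, in HepG2 CDS 4 and 13, and in HepG2 3′ UTRs 8 and 20. Template-strand intervals outnumbered coding-strand ones in all classes but K562 CDS. The strand of such motifs over all eligible sequence was not counted, so these counts have no background beside them and were not tested. GC skew, the excess of G over C on the coding strand as a share of both, had a median of −0.107 in HepG2 CDS (−0.158 to −0.0133), the only class whose limits did not include 0. C exceeded G on the coding strand in 26 of 45 K562 CDS, 28 of 43 K562 3′ UTR, 27 of 38 HepG2 CDS and 35 of 67 HepG2 3′ UTR intervals, the last being nearest to an even split. The skew of all eligible sequence was not computed either.

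Within coding sequence most intervals of both lines were in internal coding exons. In K562, 32 of 45 were in internal coding exons and 10 in the last, and in HepG2 21 of 38 were in internal and 15 in the last coding exon. The median position along the CDS was 67.2% from the start codon in K562 (51.3 to 73.0) and 84.6% in HepG2 (74.1 to 90.9), limits that do not overlap. The last 10% of the CDS held 7 K562 and 14 HepG2 intervals. Among these, the HepG2 intervals in ANGPTL4, EVI5L and PAX8 were placed on non-canonical transcripts. With each 3′ UTR divided into 3 equal parts, the part next to the stop codon held 19, the middle part 17 and the far end 7 of the 43 K562 intervals. In HepG2 these parts held 33, 17 and 17 of 67. These positions were not tested. The rule leaves out sequence within 1000 bp of a TSS, and positions over all eligible sequence were not computed, so these values have no background beside them.

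GC content in the coding intervals was raised at every codon position. Over the coding sequence of canonical transcripts more than 1000 bp from a TSS, G and C made up 55.0%, 41.7% and 54.9% of codon positions 1, 2 and 3. Interval bases were read on the transcript that placed the interval, canonical or not, and bases nearer to a TSS were kept. In K562 CDS intervals the shares were 71.2%, 55.6% and 80.4%, and in HepG2 CDS intervals 63.0%, 47.7% and 68.1%. The third position, at which many changes leave the amino acid as it is, stood furthest above the reference in both lines.

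**Figure D4:**
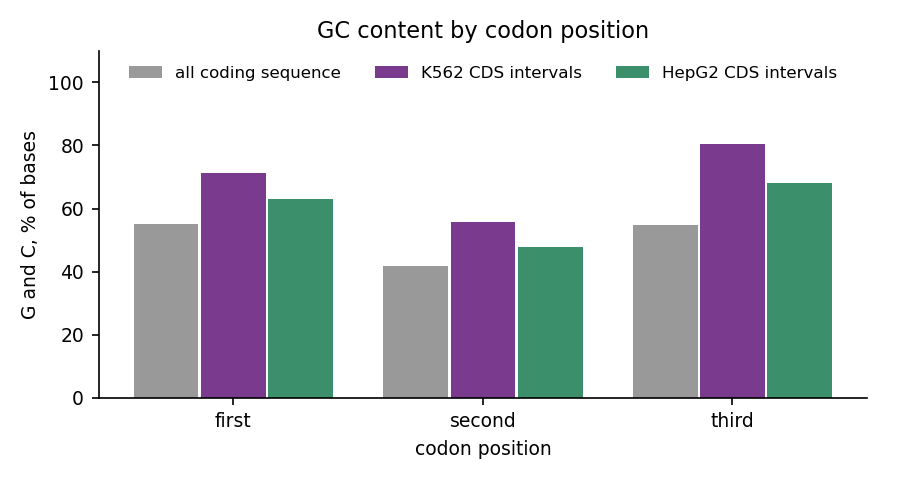
Percentage of G and C at the 3 codon positions, pooled over bases and without error bars. Grey bars, labelled all coding sequence, cover the coding sequence of canonical transcripts over 1000 bp from a TSS. Purple bars are K562 CDS intervals and green bars HepG2 CDS intervals. The third position reaches 80.4% in K562 and 68.1% in HepG2, against 54.9% in the reference.

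Among single genes, the widest K562 CDS interval was in UNC13A, with 819 bp at chr19:17716639-17717457 around exon 44 of 44, the last exon. It held 2 complete motifs and overlapped a HepG2 high-confidence interval that was centred in an intron. CLEC11A, a secreted growth factor with a C-type lectin domain, had intervals of 519 bp and 151 bp. The longer stood in the last exon of a non-canonical transcript, and neither overlapped a HepG2 interval at either confidence. DLL3, a ligand of the Notch family, had 3 K562 intervals, of 177 bp in exon 4 and of 354 bp and 2 bp in exon 7, with a GC content of 77.4% and 76.8% in the 2 longer ones. The CLEC11A and DLL3 intervals held no complete motif.

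In K562 3′ UTRs the widest were SDR42E2 with 622 bp, RASAL3 with 528 bp and ZBTB7B with 460 bp. The interval in RASAL3, a Ras GTPase-activating protein, was in the 3′ UTR of a non-canonical transcript and held 3 motifs on the template strand. One of them was a run of 13 G followed by a single other base and 3 G, which meets the definition because loops may contain G. ZBTB7B and SCRT1, a neural zinc finger repressor, held 4 motifs each, the highest number in the class.

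In HepG2 the widest CDS intervals were in ETV4, an ETS family transcription factor, with 276 bp, in EVI5L, a Rab GTPase-activating protein, with 254 bp, and in AGT, which encodes angiotensinogen, with 225 bp. All 3 were in the last exon of the transcript used, which for EVI5L was not the canonical one. Of the 3 only EVI5L overlapped a K562 interval, at lower confidence. The widest 3′ UTR intervals were SDR42E2 with 742 bp, TGFB1I1, a focal adhesion protein, with 398 bp and ST3GAL2, a sialyltransferase, with 372 bp. Of these only SDR42E2 held a complete motif. ZNF512B, a zinc finger protein, had a K562 interval of 163 bp in its 3′ UTR, which overlapped a HepG2 interval counted as TSS-proximal, and HepG2 intervals of 20 bp and 75 bp in coding exons 16 and 13.

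The next comparison asked how often an exonic interval was also found in the other line, counting any overlap of at least 1 bp with a high-confidence interval. In K562 18 of 88 had such a partner (20.5%), against 51.1% of all K562 high-confidence intervals. In HepG2 18 of 105 had one (17.1%), against 53.9% of all HepG2 intervals. TSS-proximal intervals had a partner in 56.4% of cases in K562 and 68.8% in HepG2. The difference of exonic from TSS-proximal intervals was −35.9 points in K562 (−43.1 to −26.3) with an adjusted p of 1.12e-10. The HepG2 difference was −51.6 points (−57.7 to −43.2) with an adjusted p of 6.05e-26, both by Fisher's exact test.

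Intronic intervals had partners less often than TSS-proximal ones. In K562 18.6% of them had a partner, a difference of 1.90 points (−5.85 to 11.9) with an adjusted p of 0.701. In HepG2 9.24% had one, and the exonic intervals were higher by 7.91 points (1.67 to 16.4) with an adjusted p of 0.0493. That call was lost under 6 alternatives: without intervals under 100 bp the difference was 5.87 points with an adjusted p of 0.214, and at a TSS distance of 2000 bp it was 3.73 points with an adjusted p of 0.411. With lower-confidence partners counted too, the excess over introns was larger, at 10.4 points in K562 (adjusted p = 0.108) and 13.8 points in HepG2 (adjusted p = 0.0039) by Fisher's exact test. The odds ratios of the 2 lines were 1.13 and 2.03, and a normal test of their ratio, over 88 and 105 exonic intervals, gave an adjusted p of 0.251 and did not pass.

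The difference between CDS and 3′ UTR intervals passed in neither line. In K562 6 of 45 CDS (13.3%) and 12 of 43 3′ UTR intervals (27.9%) had a partner, a difference of −14.6 points (−31.0 to 2.44) with an adjusted p of 0.158. In HepG2 the counts were 7 of 38 (18.4%) and 11 of 67 (16.4%), a difference of 2.00 points (−12.1 to 18.6), whose unadjusted p was 0.793. Counting lower-confidence intervals as partners, 41 of 88 K562 intervals had one against 75.6% of the whole list, and 33 of 105 HepG2 intervals against 67.1%. The other 47 K562 and 72 HepG2 intervals overlapped nothing in the other line.

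The 193 intervals formed 178 loci, of which 15 were exonic in both lines, 73 were in the K562 set only and 90 in the HepG2 set only. Both lines shared CDS loci in TNXB (tenascin X), C17orf50, PRR36 and RASIP1, a Ras-interacting protein of the endothelium. They shared 3′ UTR loci in FAAP20 of the Fanconi anaemia pathway, ZBTB7B, SDR42E2 at 2 places, PRR36, RTN2, CCDC9, AKT1S1, SOX12 and SEC14L2. AKT1S1 encodes a regulator of mTORC1, SOX12 a transcription factor and RTN2 a reticulon. In DBN1, the actin-binding protein drebrin, the K562 interval was centred in the 3′ UTR of a non-canonical transcript and the HepG2 interval in CDS. The HepG2 interval nevertheless lay wholly within that of K562 over 147 bp. The overlap was smallest in C17orf50, at 16 bp, and largest in SDR42E2, at 622 bp. PRR36 and SDR42E2 each had 2 loci marked in both lines. Those in SDR42E2 stood only 86 bp apart in HepG2 and 189 bp apart in K562, and are not separate observations.

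**Figure D5:**
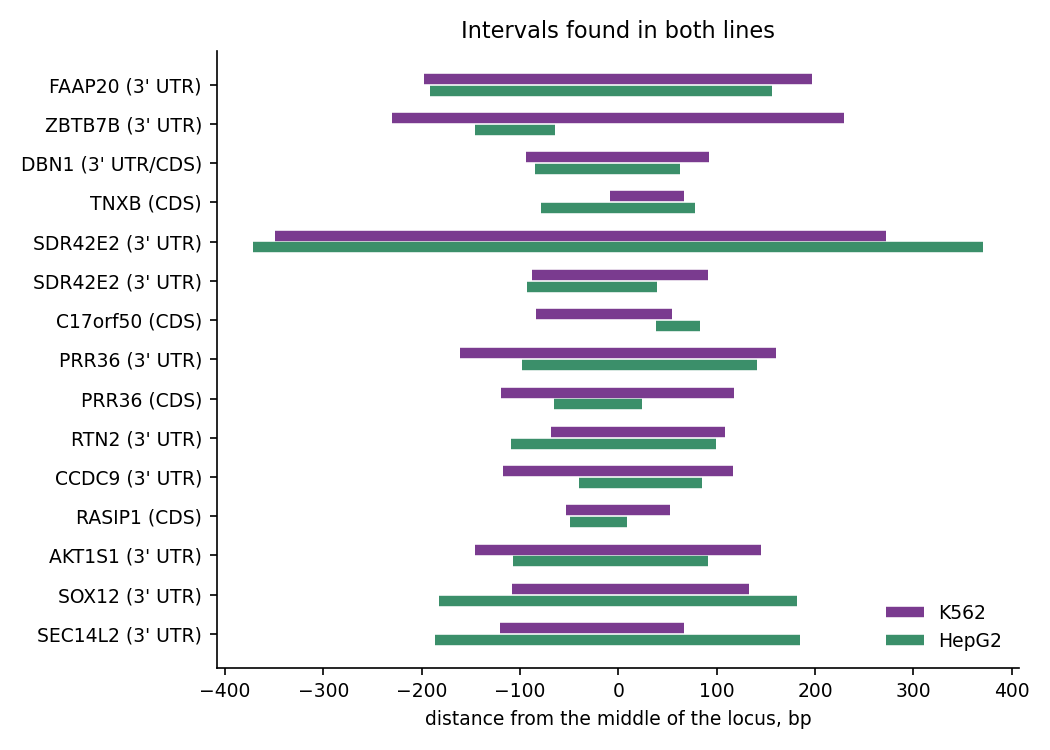
Extent of the K562 (purple) and HepG2 (green) intervals at the 15 loci exonic in both lines, drawn to scale in bp from the middle of each locus, with the class in brackets. The SDR42E2 intervals overlap by 622 bp, whereas those in C17orf50 overlap by 16 bp.

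Distance to the nearest TSS had a median of 1806 bp in K562 CDS, 2883 bp in K562 3′ UTRs, 2934.5 bp in HepG2 CDS and 3191 bp in HepG2 3′ UTRs. Intronic intervals stood further away, with medians of 4652 bp in K562 and 5489 bp in HepG2. The members just inside the 1000 bp limit were LRRC45 at 1012 bp and MYO15B at 1018 bp in K562, and CIITA at 1013 bp and FAM83C at 1021 bp in HepG2. Just outside were SEPTIN5 at 979 bp and CCDC71L at 959 bp in K562, and SECISBP2 at 1000 bp and MYO15B at 996 bp in HepG2. MYO15B was thus counted in K562 and left out in HepG2, where its interval held 1 complete motif, although the 2 intervals overlapped. Of its 3 K562 motifs, 2 were centred within 1000 bp of a TSS.

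Some of the host genes also carried a peak at a promoter. In K562 36 of 79 host genes (45.6%, 35.0 to 56.5) had a TSS-proximal high-confidence interval, against 35.5% of all protein-coding genes with eligible sequence. The HepG2 count was 39 of 97 (40.2%, 31.0 to 50.2), against 30.4%. The share was 17 of 42 for K562 CDS hosts, 21 of 40 for K562 3′ UTR hosts, 12 of 36 for HepG2 CDS hosts and 27 of 62 for HepG2 3′ UTR hosts.

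Chromosome 19 held 28 of the 88 K562 intervals (31.8%) and 16 of the 105 HepG2 intervals (15.2%), against 11.4% and 8.88% of the whole lists and 5.15% of the eligible exonic sequence. Chromosome 16 held 3 K562 intervals (3.41%) and 12 HepG2 intervals (11.4%), against 6.01% and 6.98% of the lists. These shares were not tested.

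Host genes were also counted in families. Zinc finger genes hosted intervals in 4 of 622 cases in K562 (KLF16, ZBTB45, ZBTB7B and ZNF512B) and 5 of 622 in HepG2 (ZBTB45, ZBTB7B, ZNF512B, ZNF778 and ZSCAN2). These shares of 0.643% and 0.804% compare with 0.421% and 0.517% of all 18777 eligible genes. Among 119 genes listed as homeobox, 0 were hosts in K562 and 2 in HepG2. One is PAX8, a paired-box transcription factor, and the other is PBXIP1, which entered by its name and encodes a protein that binds PBX factors. Of 148 genes listed by symbol as chromatin regulators, 0 were hosts in K562 and 1 in HepG2. That 1 is SIRT5, which also entered by its name and was a host through its 1 bp interval. None of the 44 collagen genes, 71 keratin and mucin genes, 38 secreted or metabolic liver genes, 31 erythroid and blood genes or 10 G4 helicase genes hosted an interval in either line. With so few hosts these counts cannot separate the lists from all genes.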

How the data were processed

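G4 ChIP-seq of K562 and HepG2 was analysed from 4 BED files, 2 for each line. According to the study's methods, adapters were trimmed (cutadapt), BWA placed the reads on hg19, duplicates were discarded (Picard, samtools), MACS2 called the peaks of each replicate at a q-value threshold of 0.05, and bedtools combined the replicates. The deposited values are start and end positions in bp, with no other score, and no value per replicate. High-confidence lists required 5 of 8 replicates in K562 and 6 of 9 in HepG2, and lower-confidence lists required 2. Depth is unknown.

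Intervals were assigned by their centre on GRCh37 with GENCODE release 44 mapped to that build (the study used release 19), with CDS taking precedence over 3′ UTR. Mitochondrial intervals, 29 in the HepG2 high-confidence list, were left out of all tests. Motifs were searched on both strands, and loops were allowed to contain G, so that adjoining runs count as 1 match. Expected CpG is the product of the C and G counts divided by the length. Only motifs of up to 30 bases are printed, and some motifs and genes are not reported here.

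Shares were compared with Fisher's exact test and strand with the exact binomial test, both two-sided, with Benjamini-Hochberg adjustment over 19 tests and a threshold of 0.05. Each alternative was adjusted over its own tests, which were fewer without shared intervals and within width classes. Intervals of differences are Newcombe intervals, those of shares Wilson or Clopper-Pearson. Effects in the 2 lines were compared by the ratio of their odds ratios, adjusted over 6 contrasts. Intervals of a list are not replicates, and intervals in 1 gene or shared by both lines have a common source. Alternatives changed the distance, annotation, width minimum, motif, overlap and list. Python 3.11.15, scipy 1.17.1, statsmodels 0.14.6 and pysam 0.24.0 were used, and the scripts were tested on simulated data.

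Named genes were the 3 widest intervals and the 3 with most motifs per line and class, genes with motifs in both lines, and genes with at least 3 loci. The genes of motif-bearing intervals, of shared loci, of the families and of the distance limit are named as lists, apart from those not reported, and POT1 was chosen after its values were seen. Members, lists and tests were chosen with earlier results of these data known.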

Additional observations from a re-analysis of the deposited data

How the results depend on the processing

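Of 221 tests under alternatives, 188 kept their direction and side of the threshold, and of 36 numbers of intervals 27 stayed within 1.5 times, and the cause of the others was not tested. Some of those kept could not change. Leaving out shared intervals was not applied to the numbers of intervals, and giving 3′ UTR precedence leaves the pooled exonic intervals as they are. With at least 50% of the interval in its class, the K562 strand difference between CDS and 3′ UTR stayed at 88.9 points (adjusted p = 0.0576, Fisher's exact test) and the HepG2 excess of partners over introns was 8.24 points (adjusted p = 0.0554, same test), and both lost their call. At 2000 bp from a TSS, K562 had 21 CDS and 24 3′ UTR intervals, the strand difference was 100 points without a call, HepG2 partners differed between CDS and 3′ UTR by −0.462 points, and the excess over introns was 3.73 points without a call. With TSSs of protein-coding transcripts only, CDS held 82 K562 and 65 HepG2 intervals, the HepG2 motif difference between classes turned to 3.21 points, the 3′ UTR motif difference between lines was 17.98 and the difference in CDS share 18.2 points, both with a call, and partners against introns differed by −3.93 points in K562 and 5.37 points, without a call, in HepG2. Without intervals under 100 bp, HepG2 had 20 CDS intervals, partners differed between classes by −10.0 points and exceeded introns by 5.87 points without a call.

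In the lower-confidence lists, CDS held 260 K562 and 512 HepG2 and 3′ UTRs 216 and 491 intervals. The K562 strand difference was 25.6 points without a call, the 3′ UTR motif difference between lines 6.67 points with a call, HepG2 partners differed between classes by −1.36 points, and partners against introns by −0.909 points in K562 and by 0.527 points, without a call, in HepG2. With loops of up to 12 bases, the coding-strand share of 3′ UTRs was 16.7% in K562 and 8.33% in HepG2, both with a call, the K562 strand difference was 41.7 points without one, the motif difference between lines was 23.6 points in CDS and 28.6 in 3′ UTRs with a call, and K562 motifs against introns turned to 1.86 points. With runs of 2 or more G, the strand difference was 16.2 points and K562 motifs against TSS-proximal intervals −6.75 points, both without a call, and motifs against introns turned to 3.24 points in K562 and 2.88 in HepG2. After extension by 50 bp, the HepG2 motif difference between classes was 1.22 points and the strand difference 36.4 points without a call. With a partner covering at least 50%, HepG2 classes differed by −3.26 points and the excess over introns was 6.88 points without a call. Without shared intervals, the 3′ UTR motif difference between lines was 19.01 and that in CDS share 20.1 points, both with a call after adjustment over fewer tests. No paired analysis was possible because the deposited lists merge the replicates, and for the same reason no replicate could be left out. The coding-strand share of HepG2 CDS intervals, and its difference from 3′ UTRs, has no value because no such interval held a motif.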
